A study of Mus musculus with 9 samples.

Results

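The genes described here are 47 interferon-stimulated genes, a set taken by name, for what the genes are known to do and not by a threshold on these data, among 54838 gene identifiers measured by RNA-seq. All 9 libraries came from PDA530 Met (written PDA50 Met in the design text), a mouse pancreatic ductal adenocarcinoma line derived from a male KPC mouse's liver metastasis, of mixed 129/SvJae/C57Bl/6 background. KPC is a genetic model of this cancer. The knockout group was E4, 1 single-cell clone edited with CRISPR/Cas9 in Zdhhc20, the gene of a palmitoyltransferase, which attaches palmitate to proteins. The control group was C5, 1 single-cell clone nucleofected with those guide RNAs as well, in which no edit was made and Zdhhc20 is still expressed. The uncloned line itself made up the parental group. Each group had 3 libraries, from cells in normal growth with no treatment, and no interferon was given to any of them. The libraries of the knockout and of the control group are repeats of 1 clone each, so p-values measure the spread between libraries of a clone and not between clones, and a difference of a clone cannot be told apart from an effect of the edit.

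Interferons are secreted signals of viral infection. They bind receptors that act through the JAK kinases and the factor ISGF3, which contains STAT2 and IRF9 and binds interferon-stimulated response elements in front of its target genes. The products sense viral RNA, block translation, degrade RNA, tag proteins with the ubiquitin-like ISG15 or stop viruses at membranes. Many tumour cells keep part of this set on without infection. The IFITM proteins of the set are themselves palmitoylated, and ZDHHC20 is 1 of the enzymes known to act on IFITM3.

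Zdhhc20 was at 82.4 ± 7.74 CPM (counts scaled to library size after TMM, mean ± SD, n = 3) in the parental cells, 110 ± 20.7 in the control clone and 38.0 ± 4.34 in the knockout clone. For the knockout clone this gave log2 fold changes of -1.53 against the control clone (adjusted p 6.97e-05) and -1.12 against the parental cells (adjusted p 0.000585). Unless another test, filter, scaling, block or choice of libraries is named, p-values given for genes are from edgeR's quasi-likelihood test, adjusted over 13153 tested genes. Those of another fit were adjusted over the genes tested in it. A gene was called at an adjusted p under 0.05. Total counts ran from 16525869 to 23192701 per library. The ductal marker Epcam was at most at 0.635 CPM in any library, while the keratins Krt8, Krt18 and Krt19 were abundant. The 7 ductal markers summed to 6434 to 7891 CPM in the parental cells, 6538 to 8808 in the control clone and 3977 to 4190 in the knockout clone. Of 26 markers of leukocytes, macrophages, fibroblasts, endothelium, hepatocytes and acinar cells, 22 failed the filter on low counts, with at most 20 counts in any library, and 6 of these (Adgre1, Dcn, Lum, Serpina1a, Cpa1 and Ctrb1) had no count. The 26 summed to 8.25 to 12.2 CPM in the parental cells, 7.91 to 13.3 in the control clone and 4.32 to 4.69 in the knockout clone. The 4 that passed, Cd68 of macrophages, Pdgfra of fibroblasts, Cela1 of acinar cells and Ttr of hepatocytes, were all called lower in the knockout than in the control clone (adjusted p 0.023, 0.0239, 0.000595 and 0.0422). Pdgfra and Ttr were also called lower than in the parental cells (adjusted p 0.00281 and 0.00307), and the part of these markers in the results that follow was not tested. Of 4 markers of plasmacytoid dendritic cells, which make much interferon, Siglech and Ccr9 were at 0 counts in every library, while Tcf4 was at 44.1 to 67.2 CPM and Bst2, a gene of the set, at 6.49 to 12.7.

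Much of the set was silent or nearly so. Of the 47 genes, 24 passed the filter on low counts, and 20 of these had a mean of at least 1 CPM over the 9 libraries. The other 23 could not be tested. Oas2, Rsad2, Cmpk2, Gbp7 and Ifitm3 had no count in any library. Ifit1, Oas1a, Ifi44, Rtp4 and Ifitm1 had 1 count each over all 9. Isg15, the ubiquitin-like modifier, had 5 counts in all, as had Oasl2 and Zbp1. Nlrc5 had 4, and Gbp3 and Sp100 had 2 each. Mx1, Parp14, Mx2, Gbp2 and Usp18 had 16, 18, 21, 23 and 26 counts. Dhx58, a helicase related to the RNA sensors, had 53 counts, and Irf7, a factor that drives interferon production, had 62. At this depth these genes were not detectable or were near the limit of detection, and 0 counts in a library allow up to 3 counts. Herc6, Parp12, Ifi27 and Xaf1 were tested but averaged under 1 CPM.

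**Figure D1:**
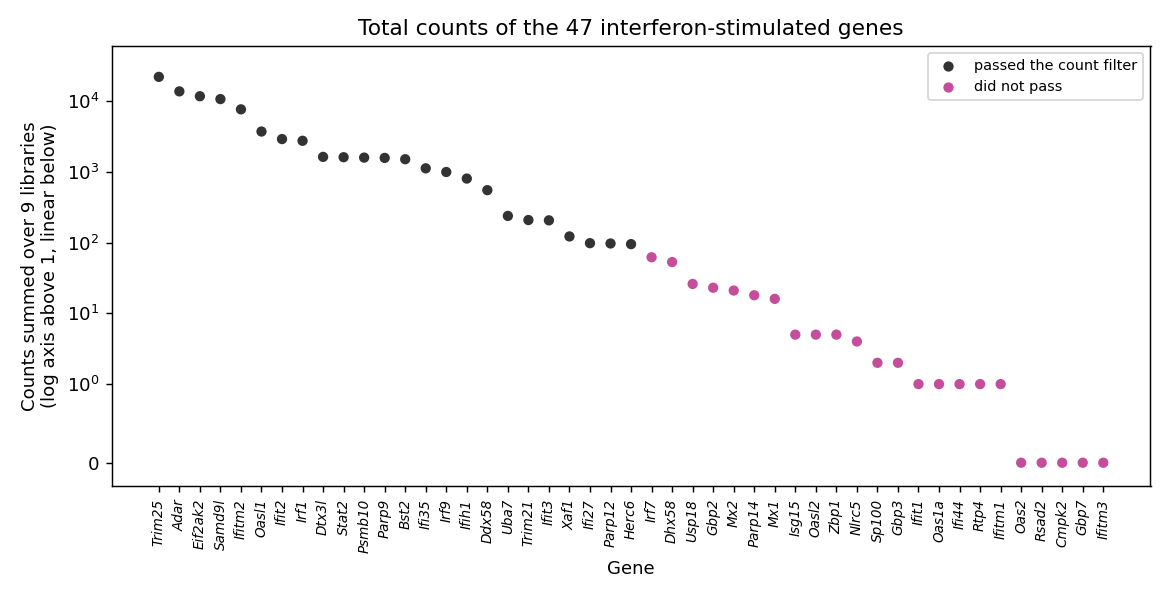
Counts summed over the 9 libraries (vertical axis, logarithmic above 1 and linear below) for each of the 47 genes, ordered from high to low. Dark points are the 24 genes that passed the filter on low counts and pink points the 23 that did not, 5 of them at 0.

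Per length, Ifitm2 stood highest. It was at 80.8 ± 5.86 CPM per kilobase of exon in the parental cells, 90.3 ± 10.6 in the control clone and 33.5 ± 0.974 in the knockout clone. Over the 9 libraries Ifitm2 averaged 68.2 CPM per kilobase, followed by Trim25 at 22.4, Eif2ak2 at 13.5, Samd9l at 11.4 and Adar at 9.93. The lowest of the 20 was Uba7, at 0.208. In CPM, those 20 genes averaged between 1.20 and 129 with a median of 9.42, against a median of 26.3 over all tested genes.

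The silent and the expressed genes could be compared in their promoters, taken from RefSeq (build GRCm38.p6) as the 250 bases before a gene's start. The core of the interferon-stimulated response element was searched as GAAA, any 2 bases (NN) and GAAA again, on both strands, so also as TTTC, NN and TTTC, and overlapping copies were counted. It was present in 978 of 32851 promoters (2.98%). Promoters were found for 36 of the 47 genes, 43 promoters in all. The motif was in 11 of the 43 promoters and so in 11 of the 36 genes. Of these 11, 4 were among the 22 tested genes with a promoter (Ifitm2, Bst2, Stat2 and Ifit3) and 7 among the 14 that could not be tested (Isg15, Ifit1, Oas1a, Rsad2, Gbp2, Gbp3 and Gbp7). The core of the STAT dimer site, TTCNNNGAA, which reads the same on both strands, was in 2306 promoters (7.02%). Of the 43 promoters of the set 6 held it, in 6 of the 36 genes, 4 of them tested. A match is a description of these letters and not a site shown to be bound. Some stretches overlap annotated exons, 1 of Irf9 in all its 250 bases. In Gbp2 61 bases overlap, and its motif, 49 bases before the start, lies among them. The 4 promoter stretches below set the motif of an abundant gene that was low in the knockout clone (Ifitm2) and of one that was high in the control clone (Bst2) beside those of a gene with 5 counts (Isg15) and of a gene with no count (Rsad2). Capitals mark the GAAA-NN-GAAA core on either strand. All are on the minus strand, written 5′ to 3′, and the last 26 bases before the start of Ifitm2 are left out because they overlap an annotated exon. They lie at chr7:140955988-140956211 for Ifitm2, chr8:71537473-71537722 for Bst2, chr4:156200819-156201068 for Isg15 and chr12:26456453-26456702 for Rsad2. Bst2, Isg15 and Rsad2 were chosen after their values were seen.
Ifitm2: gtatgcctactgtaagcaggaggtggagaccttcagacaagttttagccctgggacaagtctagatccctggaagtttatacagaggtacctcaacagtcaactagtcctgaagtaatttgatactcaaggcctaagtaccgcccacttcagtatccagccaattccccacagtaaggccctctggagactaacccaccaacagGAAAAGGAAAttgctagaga
Bst2: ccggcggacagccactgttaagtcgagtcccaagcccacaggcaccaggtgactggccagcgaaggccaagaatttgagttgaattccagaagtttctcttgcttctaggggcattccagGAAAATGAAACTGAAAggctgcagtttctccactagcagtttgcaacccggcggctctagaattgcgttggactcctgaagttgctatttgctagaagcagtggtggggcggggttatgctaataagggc
Isg15: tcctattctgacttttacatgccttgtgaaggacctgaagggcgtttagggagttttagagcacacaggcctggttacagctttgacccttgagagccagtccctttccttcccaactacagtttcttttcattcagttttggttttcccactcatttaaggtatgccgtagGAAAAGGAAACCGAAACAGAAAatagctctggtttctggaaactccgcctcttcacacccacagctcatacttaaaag
Rsad2: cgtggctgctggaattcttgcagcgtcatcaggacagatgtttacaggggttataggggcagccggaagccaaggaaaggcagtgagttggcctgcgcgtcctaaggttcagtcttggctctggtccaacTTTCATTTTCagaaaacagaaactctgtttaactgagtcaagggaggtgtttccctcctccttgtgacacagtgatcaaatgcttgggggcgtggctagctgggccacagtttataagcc
Ifitm2 holds 1 copy, 36 bases before its start. The capitals of Bst2 hold 2 overlapping copies and those of Isg15 hold 3. Rsad2 holds 1 copy, 110 bases before its start.

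The knockout clone was compared with both other groups to ask which of these genes differ in the cells edited in Zdhhc20. None of the 24 tested genes was higher in the knockout clone than in both other groups, where 8.19% of all tested genes were, and 8 were lower (13.4% of all tested genes were; 21.5% in either direction). At an unadjusted p under 0.05, 1 gene, Eif2ak2, was higher in both comparisons, and DESeq2 and limma voom also called 0 higher in both. The 8 were Parp12, Ifi27, Samd9l, Uba7, Dtx3l, Ifitm2, Parp9 and Oasl1, which include an RNA-binding effector, a membrane restriction factor, the activating enzyme of ISG15 and the partners DTX3L and PARP9. At a mean of at least 1 CPM they were 6 of 20, and in those 6 all 3 knockout libraries lay below the 6 others, as they did in 18.6% of all tested genes. Apart from both other groups in the control clone were Bst2 and Oasl1 (higher; 7.01% of all tested genes were) and Ifit2 (lower; 6.41%). In the parental cells these were Herc6 (higher; 3.7%), which passed the filter through those cells alone, and Psmb10 (lower; 2.14%), where 5.85% of all tested genes were apart in either direction. Counted separately, 13 of 24 were called against the control clone (2 higher, 11 lower; 42.9% of all tested genes were called, 18.7% higher and 24.2% lower). Against the parental cells 10 were called (1 higher, 9 lower; background 31.4%, 13.1% higher and 18.3% lower). The control clone and the parental cells differed in 6 (3 higher in the control clone, 3 lower; background 21.4%, 10.4% higher and 11% lower). The shares of the 24 called were thus 54.2%, 41.7% and 25%. Among the 20 genes at 1 CPM or more they were 50%, 35% and 25%, nearer to the background in the knockout comparisons. Among the 15 at 5 CPM or more they were 60%, 40% and 26.7%, so the shares did not move steadily with level. The background holds all tested genes, without such a cutoff.

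The median log2 fold change of the 24 was -0.50 against the control clone and -0.55 against the parental cells, beside medians of -0.02 and -0.01 over all tested genes. Over the 20 genes at 1 CPM or more these medians were -0.40 and -0.06, so the second rested on genes of low level. Both knockout comparisons share the knockout libraries. Filtering also bears on these counts: 18 of the 24 were above the cutoff of 0.565 CPM in all 9 libraries, but Herc6 passed through the parental cells, and Parp12, Ifi27, Uba7 and Xaf1 through libraries outside the knockout clone. A gene that passes through 1 group where it is high has to differ, so these counts are descriptions. In bulk RNA, fewer cells with a transcript and less of it in each cell cannot be told apart. The summed level of the 7 ductal markers was lower in the knockout clone as well, with 5 called lower and Epcam, at under 1 CPM, called higher than in both other groups (adjusted p 0.00393 and 0.0139), and its part in these results was not tested.

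The 3 transcription factors that could be tested were not called in any comparison by edgeR, DESeq2 or limma voom, and at an unadjusted p under 0.05 Irf9 differed between the control clone and each other group and Stat2 between control and parental cells. Stat2, a subunit of ISGF3, was at 5.92, 9.19 and 8.88 CPM in the parental libraries, at 10.4, 8.57 and 17.4 in the control libraries and at 8.99, 7.79 and 8.06 in the knockout libraries. Its groups overlapped (log2 fold change -0.55, SE 0.26, adjusted p 0.118 against the control clone; 0.05, adjusted p 0.898 against the parental cells). Without control replicate 2 Stat2 was called higher in the control clone than in the knockout clone (-0.74, adjusted p 0.0240) and than in the parental cells (0.80, adjusted p 0.0309). Irf9, the DNA-binding subunit of ISGF3, was at 5.59, 5.42 and 5.18 CPM in the parental, 6.33, 7.44 and 6.77 in the control and 5.71, 5.12 and 5.20 in the knockout libraries. The 3 control libraries of Irf9 lay above all others, but the clones were not called against each other (-0.35, SE 0.13, adjusted p 0.0517), except where the filter asked for 5 CPM on average (-0.37, adjusted p 0.0306). Irf1, an activator induced by interferon gamma, was at 14.02, 16.7 and 16.8 CPM in the parental, 19.4, 15.1 and 17.0 in the control and 13.7, 16.0 and 17.2 in the knockout libraries. Its groups overlapped, with log2 fold changes of -0.14 and -0.02 for the knockout clone (adjusted p 0.437 and 0.92). Irf7 had 8, 5 and 4 counts in the parental, 16, 8 and 17 in the control and 3, 0 and 1 in the knockout libraries. With no filter on low counts Irf7 was called lower in the knockout than in the control clone (adjusted p 0.00274), with at most 17 counts in any library. Irf7 passed the filter when any 1 library other than control replicate 1 or 3 was left out, and was called between the clones in each of these 7 fits (adjusted p 0.00232 to 0.0191). Against the parental cells it was called, lower, without control replicate 2 (adjusted p 0.0487) or knockout replicate 1 (adjusted p 0.044) and not in the other 5.

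Of the RNA sensors, Ifih1, the gene of MDA5, was at 8.33, 7.54 and 8.35 CPM in the parental, 2.18, 0.952 and 3.41 in the control and 3.42, 5.34 and 3.62 in the knockout libraries. All 6 libraries of the clones were below the 3 parental ones. The control clone was lower than the parental cells (-1.88, SE 0.36, adjusted p 0.0063), whereas the knockout clone was not called against the parental cells (-0.97, SE 0.34, adjusted p 0.0552). Between the clones Ifih1 was 0.91 higher in the knockout (SE 0.36) without being called (adjusted p 0.0699), except by DESeq2 (adjusted p 0.0392), with no filter (adjusted p 0.0277), by limma voom (adjusted p 0.04998) or without control replicate 3 (adjusted p 0.00897). The difference from the parental cells was called in a fit of only these groups (adjusted p 0.000987), by DESeq2 (adjusted p 0.0283), by limma voom (adjusted p 0.0261), with no filter (adjusted p 0.0188) and without control replicate 2 (adjusted p 0.00483) or 3 (adjusted p 0.0141). Ddx58, the gene of RIG-I, ranged from 1.43 to 6.67 CPM over all libraries, both extremes in the control clone, and was called in none of the comparisons (adjusted p 0.31 to 0.873), except between the clones without control replicate 2 (-0.97, adjusted p 0.0286). Dhx58 counts were 5, 5 and 9 in the parental, 11, 14 and 4 in the control and 2, 0 and 3 in the knockout libraries, and with no filter Dhx58 was called lower in the knockout than in the control clone (adjusted p 0.0368).

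Among the effectors that bind RNA or act on translation, Samd9l and Oasl1 were low in the knockout clone. Samd9l (chr6:3372257-3399572), a restriction factor that slows translation, was at 70.0, 77.1 and 84.1 CPM in the parental libraries, 95.7, 39.5 and 134 in the control libraries and 18.5, 17.97 and 20.3 in the knockout libraries. The knockout libraries lay close together and below every other library, while the control libraries were spread over a wide range. Samd9l was lower in the knockout clone, with a log2 fold change of -2.24 (SE 0.35, adjusted p 0.000916) relative to the control and -2.03 (SE 0.35, adjusted p 0.00241) relative to the parental cells. The control clone and the parental cells differed by 0.22, which was not called (adjusted p 0.676) except without control replicate 2 (0.57, adjusted p 0.0115).

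Oasl1 (chr5:114923240-114937915), an OAS-like protein without synthetase activity that restrains translation of Irf7, was at 20.1, 21.1 and 23.5 CPM in the parental, 33.2, 24.3 and 42.2 in the control and 11.04, 9.79 and 9.05 in the knockout libraries. The 3 groups did not overlap and stood in the order knockout, parental, control. Knockout cells were lower than control cells (-1.74, SE 0.19, adjusted p 0.00012) and than the parental cells (-1.11, SE 0.19, adjusted p 0.00206). The control clone was above the parental cells (0.63, SE 0.18, adjusted p 0.0352), a call that was lost in a fit of only these groups (adjusted p 0.0827) and on leaving out any 1 library other than control replicate 2, for instance parental replicate 1 (adjusted p 0.132). The neighbouring Oasl2, whose start lies 26304 bases away, had 5 counts.

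Ifit2 behaved differently. This member of a family that binds viral RNA lies at chr19:34550694-34576419 and was at 20.7, 23.5 and 19.4 CPM in the parental, 10.2, 9.46 and 9.55 in the control and 20.3, 23.1 and 19.7 in the knockout libraries. Its 3 control libraries lay below the 6 others, as in 10.9% of all tested genes, and the log2 fold change from parental to control cells was -1.12 (SE 0.11, adjusted p 0.000306). The knockout clone was 1.11 above the control clone (SE 0.11, adjusted p 8.04e-05) and differed from the parental cells by -0.01 (SE 0.11, adjusted p 0.956). Ifit3, with its start 32837 bases away, averaged 1.69 ± 0.414, 0.807 ± 0.477 and 1.102 ± 0.221 CPM in the parental, control and knockout libraries and was called in no comparison (adjusted p 0.0983 to 0.439), except for control against parental cells with the replicate number as a block (-1.11, adjusted p 0.0468) or without control replicate 1 (-1.67, adjusted p 0.0203). Its value is uncertain because reads it shares with the near-identical Ifit3b are divided by estimate. Ifit1, 90177 bases from Ifit2, had 1 count. Ifit2 was thus the best expressed of these 3 neighbours.

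Eif2ak2, the gene of the RNA-activated kinase PKR that blocks translation, was at 66.8, 65.5 and 68.9 CPM in the parental, 62.3, 49.0 and 64.2 in the control and 82.6, 86.7 and 75.3 in the knockout libraries. The knockout libraries were above the 6 others. Between the clones Eif2ak2 was higher in the knockout (0.48, SE 0.11, adjusted p 0.00595), and 0.28 above the parental cells without being called (adjusted p 0.0727), except in a fit of only these groups (adjusted p 0.0034) and without control replicate 2 (adjusted p 0.00879) or 3 (adjusted p 0.0372). Relative to the medians of chromosome 17, where Eif2ak2 lies, the differences of 0.48 and 0.28 were 0.34 and 0.069. Adar, the gene of the RNA editor ADAR1, was lower in the knockout than in the control clone (-0.28, SE 0.08, adjusted p 0.0142), a call lost with no filter (adjusted p 0.0628) or on leaving out control replicate 1 (adjusted p 0.0528) or knockout replicate 2 (adjusted p 0.0657) or 3 (adjusted p 0.0532), and in a fit of the clones alone (adjusted p 0.0598). From the parental cells the knockout clone differed by -0.04 (adjusted p 0.694) and the control clone by 0.24 (adjusted p 0.0513). The latter was called by DESeq2, with the filter at 5 CPM on average and without control replicate 3. The control libraries of Adar lay above all others.

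The ISG15 system was near silent at its modifier. Isg15 had 5 counts, and Usp18, the protease that removes ISG15, had 26. Uba7, the enzyme that activates ISG15, lies at chr9:107975505-107984060 and was at 0.963, 1.47 and 2.06 CPM in the parental, 2.49, 1.61 and 2.78 in the control and 0.342, 0.223 and 0.584 in the knockout libraries. The knockout libraries were below all others, at a level of a few counts. Its log2 fold change was -2.60 from the control clone (SE 0.43, adjusted p 0.00123) and -1.97 from the parental cells (SE 0.45, adjusted p 0.00899). Tested genes of chromosome 9 had a median of -0.53 in both comparisons, and relative to that median the changes of Uba7 were -2.07 and -1.44. Uba7 shares 233 exon bases with Gm20661 on the same strand, so its counts are uncertain. Herc6, the main ISG15 ligase of mice, was at 1.25, 1.24 and 1.53 CPM in the parental libraries and at 0.131 to 0.278 in the 6 libraries of the clones. The log2 difference from the parental cells was -2.96 in the control and -2.63 in the knockout clone, given as a description because Herc6 passed the filter through the parental cells alone. The clones were not called against each other (0.33, adjusted p 0.669). Herc6 shares 1269 exon bases with Gm45193 on the same strand, so its counts are uncertain.

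Ifitm2 and Bst2 were the membrane restriction factors expressed. Ifitm2 (chr7:140954837-140955987) encodes a small palmitoylated protein that hinders fusion of viral and endosomal membranes. It was at 51.6, 49.9 and 57.2 CPM in the parental, 64.9, 51.5 and 61.0 in the control and 22.1, 22.4 and 21.2 in the knockout libraries. The knockout libraries differed little among themselves and lay well below the 6 others. Relative to the control clone Ifitm2 was at -1.43 (SE 0.10, adjusted p 1.41e-05), and relative to the parental cells at -1.27 (SE 0.10, adjusted p 4.76e-05). This ranged from -1.52 to -1.36 and from -1.32 to -1.21 over the alternatives run. From parental cells to the control clone Ifitm2 differed by 0.16 (adjusted p 0.279), which was called without control replicate 2 alone (0.25, adjusted p 0.0443). Its relatives with starts 11234 bases (Ifitm1) and 54783 bases (Ifitm3) away had 1 count and no count, so Ifitm2 was the expressed member of these 3. It shares 268 exon bases with Gm45717 on the same strand. Bst2 (chr8:71534255-71537456), the gene of tetherin, which holds budding viruses at the cell surface, was at 6.79, 7.72 and 6.59 CPM in the parental, 12.7, 12.6 and 12.2 in the control and 6.49, 6.57 and 7.88 in the knockout libraries. It was high in the control clone, by 0.83 over the parental cells (SE 0.12, adjusted p 0.00212). The knockout clone was below the control clone (-0.84, SE 0.12, adjusted p 0.000649) and differed from the parental cells by -0.01 (SE 0.13, adjusted p 0.956). Bst2 and Ifit2 thus separated the control clone from both other groups in opposite directions.

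DTX3L, a ubiquitin ligase, and PARP9, an ADP-ribosyltransferase, form a complex, and their genes lie head to head on chromosome 16 with starts 681 bases apart. Dtx3l (chr16:35926511-35939151) was at 11.6, 13.1 and 13.1 CPM in the parental, 12.6, 7.20 and 15.2 in the control and 4.64, 4.06 and 4.09 in the knockout libraries. Parp9 (chr16:35938470-35972605) was at 10.6, 11.6 and 12.1 CPM in the parental, 10.5, 5.53 and 17.8 in the control and 5.37, 4.73 and 4.67 in the knockout libraries. In both genes the knockout libraries were lowest, and control replicate 2 was next, close to them in Parp9. Dtx3l was at -1.45 from the control clone (SE 0.24, adjusted p 0.00124) and -1.56 from the parental cells (SE 0.24, adjusted p 0.00134). Parp9 was at -1.20 (SE 0.34, adjusted p 0.018) from the former and at -1.21 from the latter (SE 0.34, adjusted p 0.0236). The Parp9 calls were lost in a fit of the clones alone (-1.17, adjusted p 0.0514) and with knockout replicate 2 (adjusted p 0.0612) or 3 (adjusted p 0.0602) left out, and against the parental cells on leaving out any 1 parental or knockout library (adjusted p 0.0501 to 0.077). The genes share 458 exon bases on opposite strands, where their reads cannot be told apart without the strand setting. Chromosome 16 had medians of -0.35 and -0.29, relative to which Dtx3l was at -1.102 and -1.27 and Parp9 at -0.85 and -0.92.

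Parp12, an ADP-ribosyltransferase, had 9, 11 and 22 counts in the parental, 21, 6 and 28 in the control and 0 in each of the knockout libraries, or 42, 55 and 0 by group. Against a floor of 3 counts over the group, knockout cells had it at least 17.3-fold lower than control cells did (adjusted p 0.00381). The same bound from the parental cells was at least 14.2-fold lower (adjusted p 0.0074). Both are given as descriptions because Parp12 passed the filter through libraries outside the knockout clone. These bounds cover counting error in the knockout clone only, with the counts of the other group taken as observed. Trim25, a ubiquitin ligase that activates RIG-I, was at 110, 117 and 128 CPM in the parental, 154, 105 and 204 in the control and 114, 116 and 108 in the knockout libraries, and it was called in no comparison (-0.45, adjusted p 0.0854 between the clones). Without control replicate 2, Trim25 was called between the clones (-0.66, adjusted p 0.00101) and between control and parental cells (0.59, adjusted p 0.00497). With all libraries and no filter it was called between the clones (-0.43, adjusted p 0.0384). Trim21, an antibody receptor in the cytosol and a ubiquitin ligase, averaged 1.01 to 1.46 CPM in the groups and was not called.

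Psmb10, a subunit of the immunoproteasome that cuts peptides for MHC class I, was at 7.23, 8.19 and 8.24 CPM in the parental, 10.1, 11.1 and 9.50 in the control and 10.3, 9.90 and 9.87 in the knockout libraries. The parental libraries lay below the 6 others, as in 6.45% of all tested genes. Both clones were above the parental cells, the control by 0.38 (adjusted p 0.0433) and the knockout by 0.35 (adjusted p 0.0435), calls that were lost under total-count scaling (adjusted p 0.0694 and 0.0526), with no filter (adjusted p 0.159 and 0.156), and on leaving out any 1 parental or knockout library or control replicate 1. The control call was also lost without control replicate 2 (adjusted p 0.069) and in a fit of only these groups (adjusted p 0.112). Nlrc5, the activator of MHC class I genes, had 4 counts.

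Of the remaining genes, Ifi27, a small mitochondrial protein, was at 0.674, 1.12 and 0.471 CPM in the parental, 1.09, 0.476 and 0.945 in the control and 0.0977, 0.111 and 0.117 in the knockout libraries. The knockout libraries lay below the 6 others, which overlapped between groups, and the knockout clone was at -2.97 from the control clone (SE 0.56, adjusted p 0.0024) and at -2.80 from the parental cells (SE 0.57, adjusted p 0.00537). These values rest on 2 counts in each knockout library and at most 25 in any library, and are uncertain where reads are shared with the related gene Ifi27l2a, which had 14 counts in all. The differences of Ifi27 are given as descriptions because it passed the filter through libraries outside the knockout clone. Xaf1, a gene that promotes cell death, was lower in the knockout than in the control clone (-1.70, SE 0.46, adjusted p 0.0154), not without knockout replicate 1 (adjusted p 0.0603) or 2 (adjusted p 0.064), and was not called against the parental cells (-0.92, adjusted p 0.184) except without knockout replicate 3 (adjusted p 0.0428). Ifi35 averaged 6.15 to 7.44 CPM in the groups and was not called. Mx2, a relative of the GTPase that blocks viral nucleocapsids, had 3 counts in each parental library, 4, 1 and 7 in the control libraries and none in the knockout libraries, and was called in both knockout comparisons when no filter was applied (adjusted p 0.0185 and 0.0404).

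**Figure D2:**
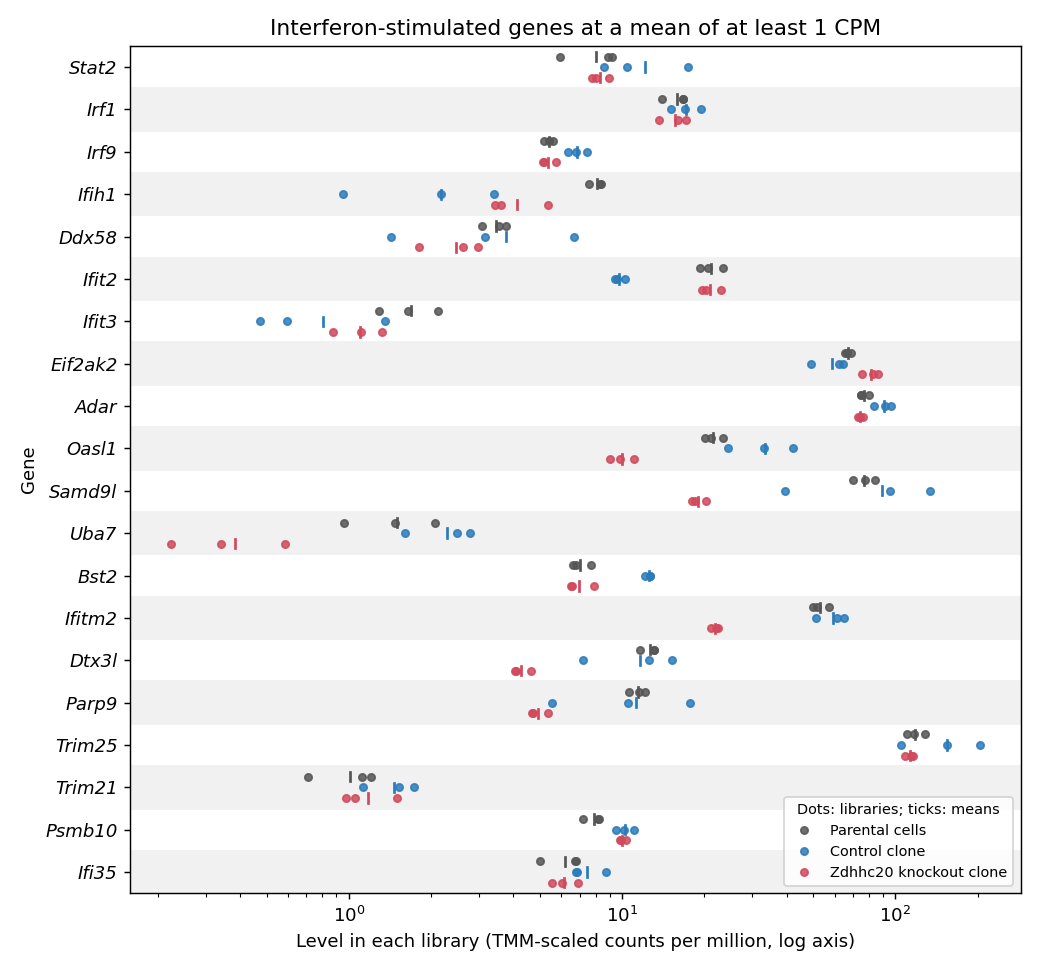
Levels of the 20 genes that averaged 1 CPM or more, in TMM-scaled CPM on a log axis. Dots are libraries, 3 per group, and ticks are group means. The red knockout dots lie below all others for Oasl1, Samd9l, Uba7, Ifitm2, Dtx3l and Parp9 and above them for Eif2ak2, while the blue control dots lie below all others for Ifit2, Eif2ak2 and Ifih1 and above them for Bst2, Oasl1, Irf9 and Adar.

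**Figure D3:**
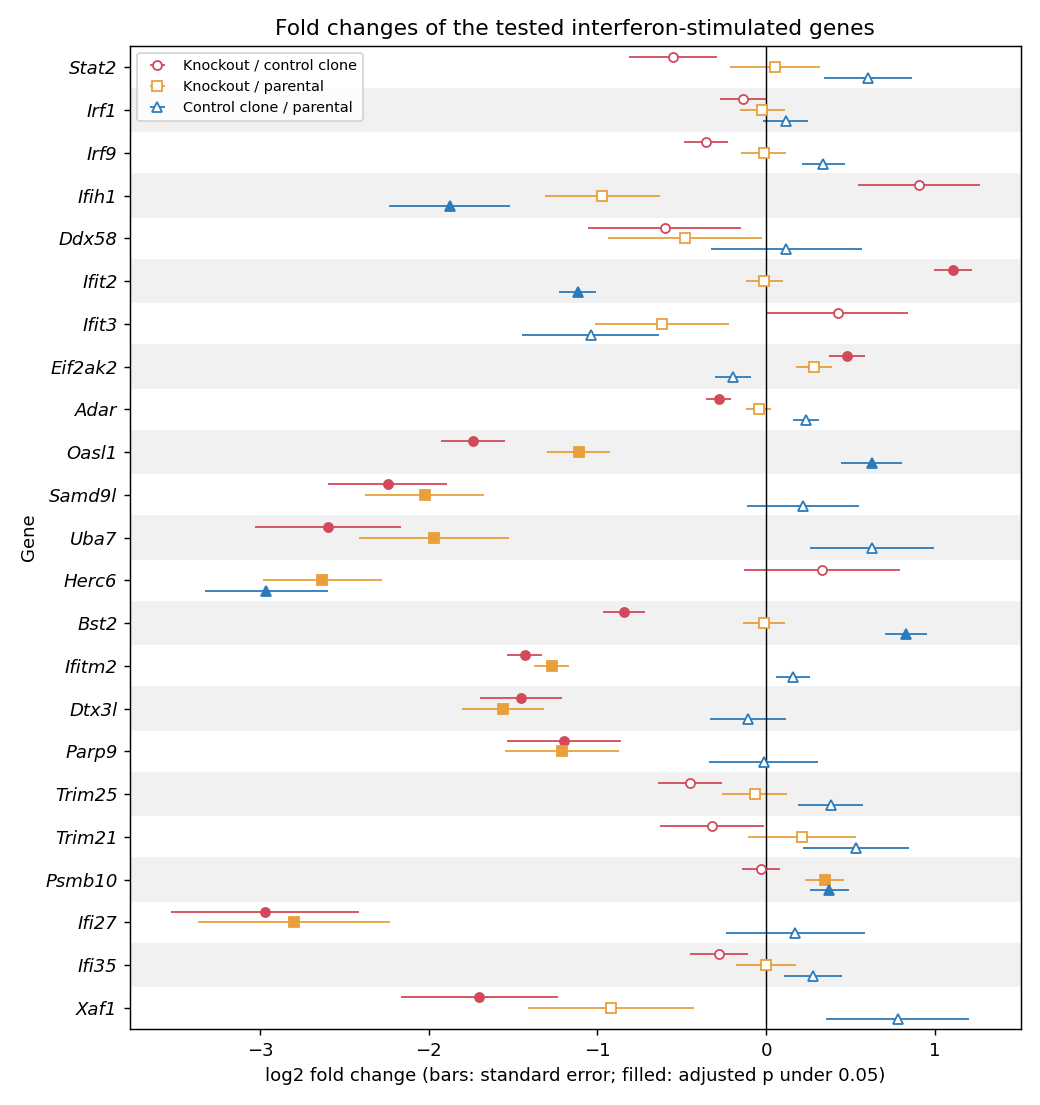
Log2 fold changes of 23 tested genes in the 3 comparisons, with bars of 1 standard error and filled symbols at an adjusted p under 0.05. Parp12 is not drawn because it had 0 counts in the knockout clone. Filled red and orange symbols sit together to the left for the 7 drawn genes that were apart in the knockout clone.

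The control clone varied most. The SD of log2 CPM, as a median over the 20 genes, was 0.112 in the parental cells, 0.285 in the control clone and 0.112 in the knockout clone, beside 0.0936, 0.218 and 0.084 over all tested genes at 1 CPM or more. Control replicate 3 was above control replicate 2 in 15 of the 20, where 50.5% of all tested genes were, with a median log2 difference of 0.42 against 0.01. Samd9l, Parp9, Ddx58 and Stat2 are examples among the values given above. The medians of the fold changes moved with these libraries. Against the control clone the median over the tested genes was -0.74 without control replicate 2 and -0.34 without control replicate 3, and the genes apart and lower in the knockout clone numbered 7 to 9 as single libraries were left out, while Eif2ak2 was apart and higher without control replicate 2 or 3. Dtx3l, Ifitm2, Oasl1 and Samd9l were in that count under every alternative run.

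The signalling chain upstream was examined in 41 further genes, of which 30 could be tested. None of 9 interferon genes passed the filter, and together they had 1 count among 169276423 over the 9 libraries. Of the 30, 16 were called between the clones (4 higher and 12 lower in the knockout clone; 42.9% of all tested genes were called). Between knockout and parental cells 12 were called (3 higher, 9 lower; background 31.4%), and between control and parental cells 8 (6 higher, 2 lower; background 21.4%). Against both other groups, 9 of the 30 were lower in the knockout clone (13.4% of all tested genes were) and 2 higher (8.19%).

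Of 6 receptor genes, 4 were lower in the knockout than in either other group, beside 13.4% of all tested genes. Ifngr1, the binding chain for interferon gamma, was at 156 ± 23.3 CPM in the parental cells, 118 ± 13.5 in the control clone and 74.4 ± 5.56 in the knockout clone. The knockout clone was at -0.66 from the control clone (SE 0.12, adjusted p 0.00245) and at -1.07 from the parental cells (SE 0.13, adjusted p 0.000317). The paired values that follow are in that order. Ifngr2, Ifnar2 and Il10rb lie on chromosome 16. Ifngr2, its signalling chain, was at log2 fold changes of -0.70 and -0.86 (adjusted p 0.0191 and 0.011), and Il10rb, a chain of the interferon lambda receptor, at -1.02 and -0.63 (adjusted p 0.000817 and 0.0142). Ifnar2, a chain of the type I receptor, was at -0.35 and -0.34 (adjusted p 0.0252 and 0.038), which relative to the chromosome's medians came to -0.00 and -0.05. Against those medians Ifngr2 was at -0.35 and -0.56 and Il10rb at -0.67 and -0.34. The calls of Ifnar2, Ifngr2 and Il10rb were each lost in at least 1 comparison on leaving out single libraries, for Ifnar2 also with no filter (adjusted p 0.0678 and 0.0968). Ifnar2 and Il10rb share 315 and 569 exon bases with Gm21970 on the same strand, so their counts are uncertain.

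Of the kinases, Tyk2, which serves the type I receptor, followed the order of Oasl1: 20.1, 23.7 and 24.5 CPM in the parental, 35.4, 31.3 and 44.3 in the control and 13.1, 12.2 and 12.3 in the knockout libraries. The knockout clone was at -1.56 from the control clone (SE 0.14, adjusted p 4.18e-05) and at -0.86 from the parental cells (SE 0.14, adjusted p 0.00168). Relative to the medians of chromosome 9 these were -1.04 and -0.32. Jak1 was low in control cells, both against the parental ones (-0.55, adjusted p 0.00326) and against the knockout clone, which was 0.31 above it (adjusted p 0.02, and 0.054 to 0.0606 on leaving out 1 knockout library).

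Among genes that induce interferons, Cgas, the sensor of DNA in the cytosol, went the other way. It was at 3.37, 2.71 and 2.65 CPM in the parental, 3.88, 6.25 and 2.89 in the control and 10.9, 11.8 and 11.2 in the knockout libraries, which lay above the 6 others. It was higher in the knockout clone by 1.39 (SE 0.24, adjusted p 0.00169) and 1.95 (SE 0.25, adjusted p 0.000528), or 1.92 and 2.49 relative to the medians of chromosome 9. Tlr3, a receptor for double-stranded RNA, was lower, at -1.23 (adjusted p 0.00691) and -1.15 (adjusted p 0.0136), as was the kinase gene Ikbke, at -1.48 (adjusted p 0.000282) and -0.79 (adjusted p 0.0116). Against the parental cells the calls of Tlr3 and Ikbke were lost without parental replicate 3 (adjusted p 0.0571 and 0.0539), and that of Tlr3 also without knockout replicate 3 (adjusted p 0.0545). Irf3, the factor that these sensors activate, was highest in the control clone (0.31 over the parental cells, adjusted p 0.0497, lost under most alternatives). Of the negative regulators, Samhd1, which depletes nucleotides, was higher in the knockout clone (0.81 and 0.53, adjusted p 0.00149 and 0.018), the second call being lost without parental replicate 2 (adjusted p 0.053) or 3 (adjusted p 0.0696) or knockout replicate 1 (adjusted p 0.0528). Pias1, an inhibitor of STAT signalling (-0.65 and -0.68, adjusted p 0.000332 and 0.000415), and the repressor Irf2 (-0.51 and -0.53, adjusted p 0.00441 and 0.00568) were lower, Pias1 at -0.12 and -0.15 relative to the medians of chromosome 9. Socs3, an inhibitor of JAK signalling, was highest in the control clone (0.55 over the parental cells, adjusted p 0.0132, and 0.0511 in a fit of only these groups).

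**Figure D4:**
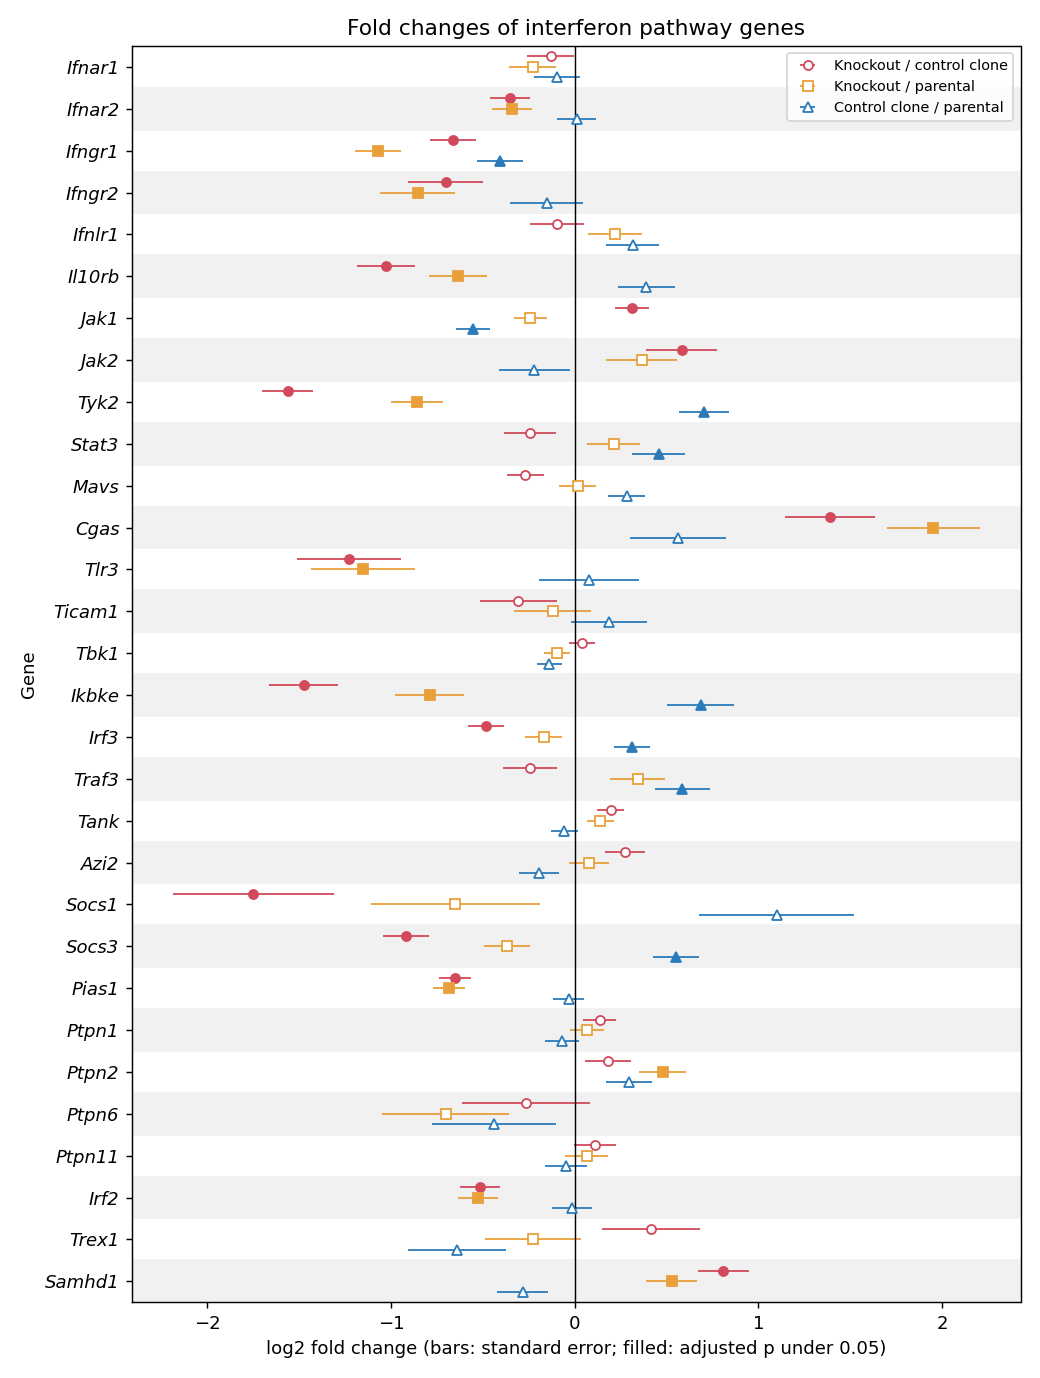
Log2 fold changes of the 30 tested genes of the interferon pathway outside the set, drawn in the same way with bars of 1 standard error. Cgas and Samhd1 lie to the right in both knockout comparisons, and Ifngr1, Il10rb, Tyk2, Tlr3 and Ikbke to the left.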

How the data were processed

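RNA was measured in 9 libraries, prepared with KAPA mRNA HyperPrep reagents per the labels' protocols. The authors deposited RSEM estimated counts per gene, all of them whole numbers. STAR 2.5.2, RSEM 1.3.0, DESeq2 1.10.1 and GRCm38 are named in the submitters' processing notes. Which annotation release and which strand setting were used is not given in the sources used here. RSEM divides reads that match several genes by estimate, which makes copies and overlapping genes uncertain.

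Symbols and coordinates (1-based) are from GENCODE M21 on GRCm38, which held 54809 of 54838 identifiers. The main test was edgeR 4.0.16 (quasi-likelihood, R 4.3.3) on these counts after filterByExpr (minimum count 10, minimum total 15) and TMM scaling, with all 9 libraries in 1 fit, group as the only term and Benjamini-Hochberg adjustment over 13153 genes. Standard errors are the fold change divided by the root of F. A level per kilobase is CPM over the length of the merged exons. Depth was 16525869 to 23192701 counts per library. The test was checked on simulated data. Between the clones it called 28.1% of genes changed 1.5-fold, 52.2% of those changed 2-fold and 83.6% of those changed 4-fold. A gene that was not called can therefore still differ.

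Values are given for genes at a mean of at least 1 CPM, library by library for those apart from both other groups (also where their mean was lower), the IFITM genes and the transcription factors. Pathway genes were named when apart from both other groups, and Ifih1, Eif2ak2, Trim25, Dhx58, Mx2 and the fold changes of Xaf1 were chosen after they were seen. Alternatives were DESeq2 1.42.0 size factors or total counts, DESeq2 or limma 3.58.1 voom as the test, dropping the filter or raising it to 5 CPM on average, a replicate block, fits to just the groups compared, leaving out each library, and a log2 threshold of 1. For Zdhhc20 and the pathway genes these were added after seeing the data. 1 gene of the pathway is left out and not reported here. The genes and lists were chosen with earlier results of these data known.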

Additional observations from a re-analysis of the deposited data

How the results depend on the processing

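Scaling with DESeq2 size factors or total counts, DESeq2 or limma voom as the test and the replicate block left 8 genes lower in the knockout clone than in both other groups. With a mean of at least 5 CPM 5 were left of 15 tested, with no filter 9, and in fits of only the groups compared 5, beside Eif2ak2, which was higher. The members called in knockout against parental cells numbered 10, or 6 among those averaging 5 CPM or more. Those called in control clone against parental cells numbered 6, and 3 when the log2 fold change also had to reach 1 in size. The median log2 fold change of the tested members, -0.50 against the control clone, was -1.30 with no filter, and -0.74 to -0.34 on leaving out 1 library (control replicates 2 and 3). Against the parental cells it was -0.55, and became -0.27 with no filter, -0.036 where genes had to average 5 CPM, -0.27 in a fit of only these groups, and -0.77 to -0.47 on leaving out 1 library, the lowest without parental replicate 3. Over single genes, including Zdhhc20 and the pathway genes, 1808 alternative values kept direction and side of the threshold, 105 lost a call and 44 gained one. Of all tested genes, 4131 were called between knockout and parental cells, but 6840 in a fit of only these groups, 2515 without parental replicate 3 and 2626 without knockout replicate 1. Between control clone and parental cells 2814 were called, but 1525 in a fit of only these groups and 1472, 1537 and 1792 without parental replicates 1, 2 and 3. In that comparison total-count scaling moved the lower share of the calls from 51.3% to 61.2%.

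No clear pairing of the libraries by replicate number was seen. With 3 libraries per group this check cannot settle whether libraries of the same number belong together. Deviations of same-numbered libraries correlated at -0.22 to 0.34, with 3 of 9 pairs over 0.1, and a library correlated best with its own number in 8 of 18 cases. With the replicate block 13, 9 and 6 members were called in the 3 comparisons, Psmb10 was called in neither comparison with the parental cells (adjusted p 0.071 and 0.0738), Irf3 lost its call between control and parental cells (adjusted p 0.0613) and Ifit3 and Zdhhc20 gained one there (adjusted p 0.0468 and 0.0475), and 5528, 3941 and 2492 of all genes were called.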
